A study of Homo sapiens with 12 samples.

Results

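AP-1 is a dimer of basic leucine zipper (bZIP) proteins, and the 9 genes described here are its FOS subunits (FOS, FOSB, FOSL1, FOSL2), its JUN subunits (JUN, JUNB, JUND) and the related repressor or activator genes ATF3 and BATF3. They are named by symbol, with no threshold on their values, and are 9 of the 58051 genes in the deposited count table; the choice of this family and of the gene lists was made with earlier results of these data known. RNA came from MDA-MB-231, an established triple-negative breast cancer line, transfected with pools of siRNA in 4 groups of 3 libraries. These were siControl (a non-targeting pool), siNELFA, siYAP and siNELFA+siYAP, the double knockdown. All groups shared the line, its medium and the transfection reagent, and the siRNA range in the labels is 50 to 100 nM. The labels name harvests at 48 h and 72 h without tying a library to either, while the methods give 72 h and independent biological replicates. Each group was made with 1 siRNA pool for each target, and the sequences within a pool cannot be told apart.

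FOS proteins bind DNA mainly with a JUN partner, while JUN proteins can pair with each other. FOS, FOSB, JUN, JUNB and ATF3 are among the immediate early genes, whose RNA is short-lived and rises within minutes of a growth factor or stress signal. NELFA is a subunit of the negative elongation factor, which holds RNA polymerase II shortly after the start of a gene, and immediate early genes are textbook examples of genes with such held polymerase. YAP is a coactivator without a DNA-binding domain that acts through TEAD proteins, and TEAD sites in breast cancer cells often lie beside AP-1 sites. FOSL1 is known as the characteristic FOS protein of mesenchymal, triple-negative lines. The comparisons below ask how the RNA of AP-1 genes differs when the pausing factor, the coactivator or both are depleted.

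The promoters of 5 members are printed because their RNA is followed gene by gene below and because they carry the short motifs that signal-responsive promoters are known for. Each sequence is the 150 bases before the RefSeq start on GRCh38.p14, read 5′ to 3′ on the strand of the gene. Capitals mark TGACGT, the core of the cyclic AMP response element that ATF and CREB proteins bind, or its reverse complement ACGTCA. They also mark TGACNTCA, a longer and looser form that includes the full element TGACGTCA, and TATAAA, the TATA box. The windows lie at chr14:75278678-75278827 for FOS, chr19:45467846-45467995 for FOSB, chr19:12791336-12791485 for JUNB, chr1:58784048-58784197 for JUN on the minus strand and chr19:18281623-18281772 for JUND on the minus strand.
FOS: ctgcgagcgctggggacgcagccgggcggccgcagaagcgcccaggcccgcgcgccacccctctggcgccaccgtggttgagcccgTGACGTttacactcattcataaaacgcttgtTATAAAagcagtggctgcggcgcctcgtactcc
FOSB: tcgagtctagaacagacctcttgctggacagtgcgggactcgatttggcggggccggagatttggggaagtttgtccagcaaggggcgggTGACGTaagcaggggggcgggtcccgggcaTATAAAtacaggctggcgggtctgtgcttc
JUNB: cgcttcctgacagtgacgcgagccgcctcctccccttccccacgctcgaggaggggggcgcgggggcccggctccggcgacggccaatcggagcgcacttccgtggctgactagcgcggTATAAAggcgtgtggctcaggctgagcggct
JUN: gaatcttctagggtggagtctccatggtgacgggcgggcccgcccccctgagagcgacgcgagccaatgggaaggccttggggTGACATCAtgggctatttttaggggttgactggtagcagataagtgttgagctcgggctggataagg
JUND: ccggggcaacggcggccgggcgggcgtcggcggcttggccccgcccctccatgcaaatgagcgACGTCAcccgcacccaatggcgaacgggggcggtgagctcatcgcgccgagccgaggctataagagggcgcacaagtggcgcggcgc

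FOS and FOSB shared a layout, with TGACGT 64 and 60 bases and TATAAA 33 and 30 bases before the start. JUNB held TATAAA at 31 bases, JUN held TGACATCA at 67 bases, and JUND held ACGTCA at 87 bases and TGACGTCA at 200 bases, beyond the printed window. FOSL2 held TGACGT at 66 bases, and ATF3 held TGACATCA 123 bases before the upstream one of its 2 listed starts and TATAAA 230 bases before the other. FOSL1 and BATF3 were not matched, so 7 of 9 members had a promoter. In the 250 bases before the start, on both strands, TGACGT was in 7.1% of 35116 listed promoters, TGACNTCA in 6.87% and TATAAA in 10.7%, and a TGACGTCA site counts under both of the first motifs. TGACTCA, the consensus AP-1 site (4.2% of promoters), the TEAD motif CATTCC (11.9%) and the serum response element core (1.16%) had no match in these 250 bases of the 7 members. Sequence outside them was not searched, so the lack of a match does not cover sites that lie there.

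The 12 libraries held between 9608145 and 18803104 counts. The siRNA targets checked the labels, since NELFA stood at 27.0 ± 1.47 CPM (counts scaled to library size with TMM factors; SD, n = 3) in siControl and at 8.71 ± 1.43 and 7.06 ± 0.949 in the 2 groups that received its siRNA, and YAP1 at 274 ± 27.0 in siControl and 42.8 ± 4.27 and 41.5 ± 2.01 in the 2 groups that received its own. The 6 genes that mark MDA-MB-231 summed to between 2439 and 3050 TPM (the deposited per-length, per-library scale) in the 12 libraries, and ESR1, PGR and FOXA1, which define luminal cells, had at most 6 counts. The other luminal markers followed had more, GATA3 at 58 to 127 counts, ERBB3 at 41 to 225 and CDH1 at 0 to 599. The replicate 1 libraries of siControl, siNELFA and siYAP stood apart from replicates 2 and 3 of their own groups. The biological coefficient of variation was 0.324, 0.308 and 0.318 in these groups over 3 libraries, 0.114, 0.140 and 0.131 without replicate 1, and 0.0578 in siNELFA+siYAP. Among these 3 groups the libraries with the same number deviated together. Values from a fit blocked on that number therefore stand beside a result whose call it alters. Deviations were taken from the mean of 3 libraries, so a shared shift of replicate 1 by itself makes numbers 2 and 3 deviate together. Libraries of unlike number were not compared, so whether numbers 2 and 3 pair across groups was not tested. The double knockdown libraries shared no deviation with those of the other groups. They carry the number 1 followed by an index in their library names, and were the most alike of any group. The labels call them replicates, but whether they came from separate transfections cannot be told from these names; if they are repeats of 1 transfection, every SD, SE, p-value and lack of overlap given for siNELFA+siYAP measures technical spread on that side.

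**Figure D1:**
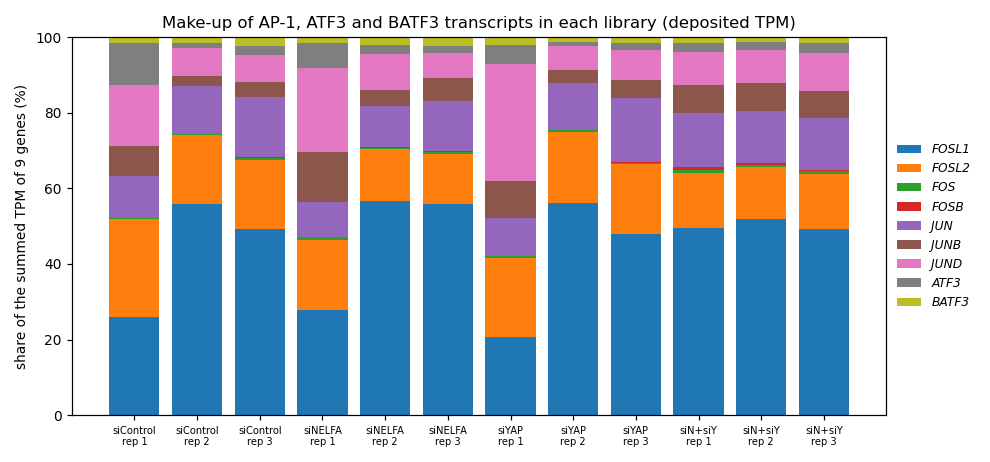
Share of the summed TPM of the 9 genes (percent, vertical axis) that each gene held in each of the 12 libraries (siN+siY is siNELFA+siYAP). FOSL1 made up 47.9% to 56.7% in 9 libraries and 20.7% to 27.8% in the replicate 1 libraries of siControl, siNELFA and siYAP.

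Per length of transcript, the AP-1 pool was mostly FOSL1 and FOSL2 in most libraries. JUN was the largest JUN family gene in most libraries, and FOS and FOSB were near the bottom. In siYAP replicate 1, JUND was the largest of the 9 members, at 123 TPM beside 82.1 for FOSL1 and 82.6 for FOSL2. In siControl, FOSL1 stood at 180 ± 95.3 TPM, FOSL2 at 78.5 ± 5.93, JUN at 52.3 ± 17.9, JUND at 37.1 ± 8.87 and JUNB at 17.0 ± 5.35 (SD, n = 3 for each). ATF3 followed at 15.8 ± 13.8 TPM, BATF3 at 7.11 ± 2.37, FOS at 1.21 ± 0.519 and FOSB at 0.483 ± 0.476 (SD, n = 3). Several neighbours in this order were not separated by the spread of the siControl libraries, namely FOSL1 and FOSL2, JUN and JUND, JUNB and ATF3, ATF3 and BATF3, and FOS and FOSB. In siNELFA+siYAP, where the libraries were closest, the order was the same, and the ranges of neighbours overlapped for FOSL2 (56.5 to 57.0 TPM) and JUN (53.6 to 57.6 TPM) alone.

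Within the FOS family, FOSL1 held between 49.2% and 79.9% of the summed TPM over the 12 libraries, with a median of 74.8%, and FOSL2 between 18.7% and 49.6%. FOS never exceeded 1.54% and FOSB never exceeded 0.947% of the family. Within the JUN family, JUN held 19.8% to 58.6%, JUND 25.9% to 60.9% and JUNB 11.0% to 29.5%. FOS and FOSB thus rested on few reads, 12 to 58 counts a library for FOS and 0 to 70 for FOSB, whereas FOSL2 had 2887 to 7379. The single library with no FOSB read, siYAP replicate 1, could hold up to 3 counts' worth of it by counting error alone.

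In these bulk libraries, fewer cells that express a gene and less RNA per cell cannot be told apart. On GENCODE release 44 coordinates (GRCh38), JUNB lies at chromosome 19, 12791486 to 12793315, wholly inside HOOK2 on the opposite strand, and FOSB lies at chromosome 19, 45467995 to 45475179, wholly inside ERCC1 on the opposite strand. The libraries were stranded, but the strand setting of the counting step is not given in the sources used here, so reads of JUNB and FOSB are uncertain to that extent. HOOK2 had at most 325 counts and ERCC1 at most 1705 counts in a library, and their fold changes are given beside those of JUNB and FOSB.

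**Figure D2:**
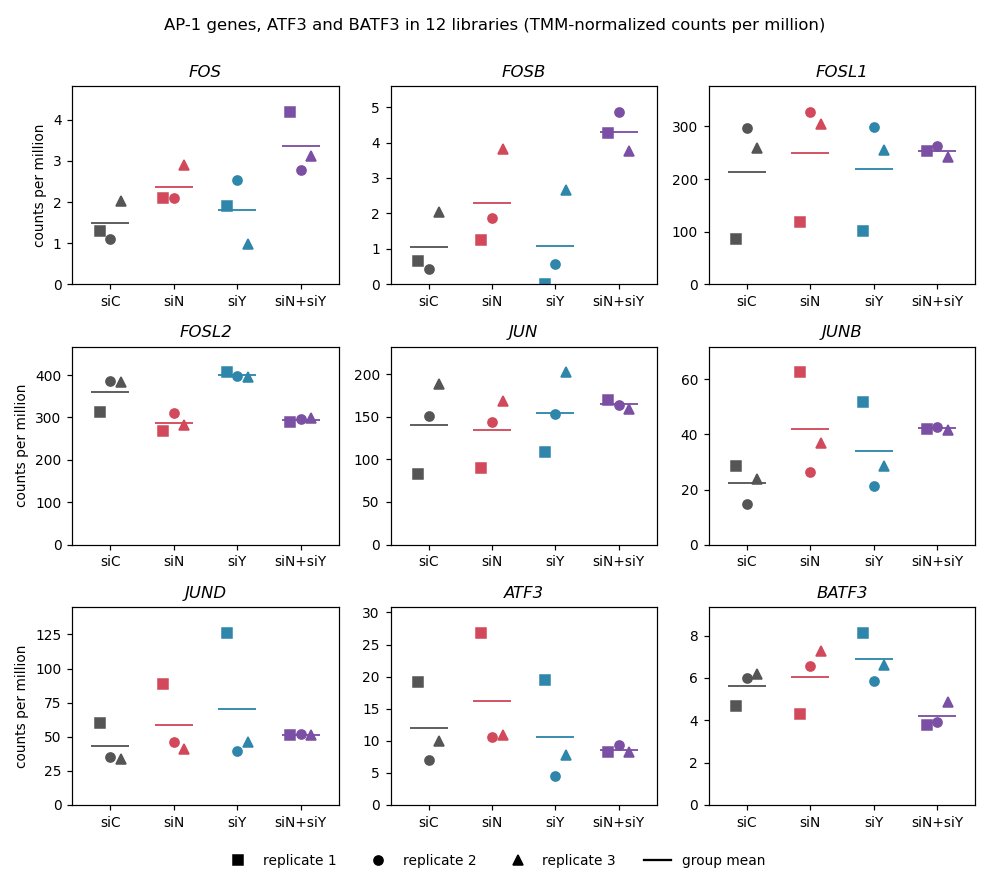
TMM-normalized CPM of each gene in the 12 libraries (siC, siControl; siN, siNELFA; siY, siYAP; siN+siY, siNELFA+siYAP), with a marker for each replicate number and a line at the group mean; each vertical axis starts at 0. Replicate 1 (squares) lies below the others for FOSL1 and JUN and above them for JUNB, JUND and ATF3 in the first 3 groups.

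The replicate 1 libraries of siControl, siNELFA and siYAP stood apart for 5 of the 9 members. FOSL1 and JUN were below and JUNB, JUND and ATF3 above both other libraries in each of these groups. The same held for much of the transcriptome. Of the 12971 genes averaging at least 50 counts, which leave out FOS and FOSB, 31.4% were below and 25.7% above in this way. The pattern was therefore not particular to the members. FOSL1 was at 85.6, 297 and 259 CPM in siControl replicates 1 to 3, at 119, 328 and 305 in siNELFA, and at 101, 299 and 256 in siYAP. The replicate 1 library was the low one in each of these groups, by 1.70, 1.41 and 1.45 on the log2 scale against the mean of the other libraries of its group. JUN, the founding JUN subunit, followed the same pattern with replicate 1 at 83.2, 89.7 and 108 CPM against 143 to 202 in the other libraries of these groups.

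JUNB, JUND and ATF3 lay on the other side. ATF3, a stress-induced repressor, was at 19.2, 26.9 and 19.4 CPM in replicate 1 and between 4.44 and 10.9 in the other libraries of these groups. JUND, a constitutive JUN subunit, was at 60.4, 89.0 and 126 CPM in replicate 1 and between 34.1 and 46.3 elsewhere in these groups, and JUNB, a weaker activator than JUN, was also highest in replicate 1 of each group. The excess of replicate 1 was 1.17, 1.31 and 1.65 for ATF3, 0.81, 1.03 and 1.57 for JUND and 0.57, 0.98 and 1.06 for JUNB on the log2 scale, in siControl, siNELFA and siYAP.

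By comparison, the median over the 12971 genes averaging at least 50 counts was -0.07, -0.03 and -0.05. Of these genes, 3.47% were lower and 4.16% higher in replicate 1 of all 3 groups by at least 1 log2 unit, as FOSL1 and ATF3 were. The same replicate 1 libraries held 169 to 599 counts of CDH1, the adhesion protein of epithelial cells, against 0 to 17 in the other 9 libraries, and 163 to 225 of ERBB3 against 41 to 86, while GATA3, a luminal transcription factor, was at 88 to 111 against 58 to 127. The summed TPM of the 6 luminal epithelial markers was 22.3 to 29.0 in these libraries and 3.18 to 7.51 in the others, and the part of this difference in the values of the members was not tested.

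**Figure D3:**
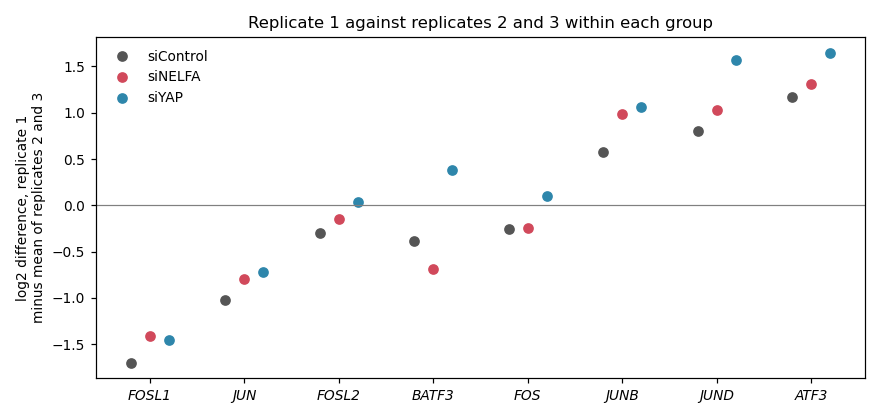
Difference of replicate 1 from the mean of replicates 2 and 3 on the log2 CPM scale (vertical axis) for 8 genes in siControl, siNELFA and siYAP; FOSB, with 0 counts in a replicate 1 library, is left out. FOSL1 sits between -1.70 and -1.41 and ATF3 between 1.17 and 1.65.

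In siNELFA, JUNB was higher once libraries were paired by number, by 1.83-fold, and no other member passed the test in either fit. JUNB was at 28.7, 14.6 and 23.9 CPM in siControl replicates 1 to 3 and at 62.6, 26.2 and 37.0 in siNELFA replicates 1 to 3. The group ranges overlapped, yet siNELFA was higher than siControl in each of the 3 numbered pairs. The log2 fold change was 0.91 ± 0.39 (SE; adjusted p = 1.00) without a block and 0.87 ± 0.14 (adjusted p = 0.00541) when blocked on replicate, by edgeR's quasi-likelihood test with Benjamini-Hochberg adjustment over all tested genes. HOOK2, the overlapping gene, had a log2 fold change of 0.05 ± 0.16 with the block. Without both replicate 1 libraries, JUNB was at 0.73 ± 0.25 (adjusted p = 0.256), in a fit where 0.0996% of all genes passed.

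Without a block, 0 of the 9 members passed the adjusted threshold of 0.05, as did 0.00564% of the 17727 genes tested, and JUNB was the 1 member at a nominal p under 0.05 (4.46% of all genes). DESeq2 also called 0 members (0.107% of its genes). With the block, 1 of 9 members passed, where 5.21% of all genes did, and 6 were at a nominal p under 0.05, where 20.2% of all genes were.

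FOSL2, the FOS-related subunit of highest count, was at 313, 386 and 384 CPM in siControl and at 267, 311 and 282 in siNELFA. The siNELFA libraries were all below the siControl libraries, as were those of 6.08% of all genes. Its log2 fold change was -0.32 ± 0.16 without a block (adjusted p = 1.00) and -0.32 ± 0.09 with it (adjusted p = 0.0575), which missed the threshold.

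FOS, the prototype immediate early gene, was at 1.30, 1.11 and 2.03 CPM in siControl and 2.10, 2.09 and 2.91 in siNELFA. These groups did not overlap, as for 6.04% of all genes in that direction, although on the deposited TPM scale they did overlap. The log2 fold change was 0.68 ± 0.39 without a block and 0.70 ± 0.37 with it (adjusted p = 0.317).

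The remaining members also had values that did not pass. With the block, the log2 fold changes were 1.27 ± 0.44 for FOSB (adjusted p = 0.116; ERCC1, on the other strand, was at 0.24 ± 0.12), 0.42 ± 0.12 for JUND (0.0689), 0.42 ± 0.18 for ATF3 (0.200) and 0.29 ± 0.10 for FOSL1 (0.116). On the CPM scale, 6 members, FOS, FOSB, FOSL1, JUNB, JUND and ATF3, were higher in siNELFA in 3 of 3 numbered pairs, a pattern held by 21.7% of all genes. FOSL2 was lower in 3 of 3, as were 22.4%. On the TPM scale, FOSL1 and JUND were higher in 2 of the 3 pairs each and ATF3 in 1. ATF3 had the opposite sign on the TPM scale, -0.12 by limma on log2(TPM + 1). JUN and BATF3, a FOS-like protein without an activation domain, were at -0.03 ± 0.10 and 0.11 ± 0.22.

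**Figure D4:**
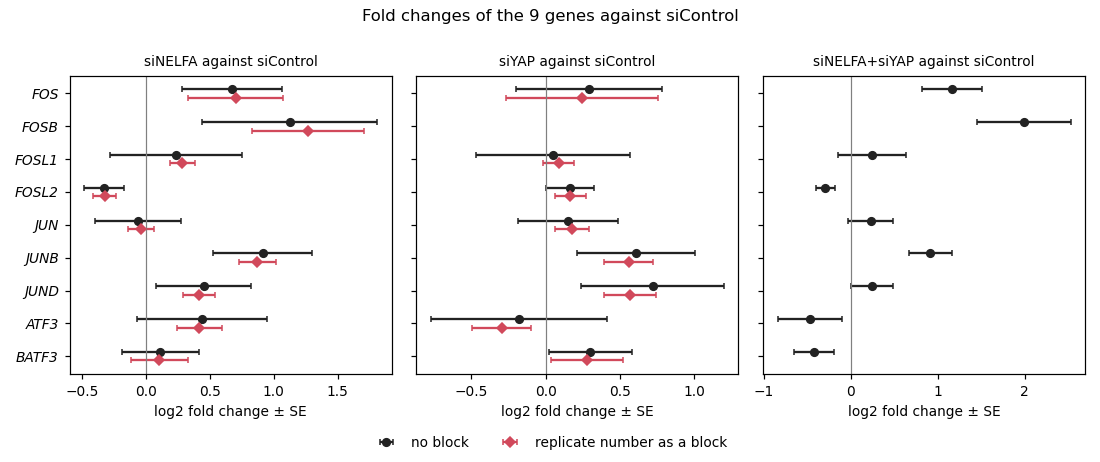
Log2 fold change (horizontal axis; bars are SE) of the 9 genes in each knockdown against siControl, from edgeR without a block (circles) and, where replicate numbers pair the groups, with the block (diamonds). JUNB in siNELFA was at 0.91 without and 0.87 with the block, and FOSB has no point in siYAP, where it had too few counts to be tested.

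In siYAP, no AP-1 gene passed the test, and the estimates ran from -0.18 for ATF3 to 0.72 for JUND. Of the 8 members tested, 0 passed the adjusted threshold (0.00578% of 17296 genes) and 0 were at a nominal p under 0.05 (1.3% of genes) by edgeR, while DESeq2 likewise called 0 (0.00314% of its genes). JUNB was at 52.0, 21.2 and 28.5 CPM and JUND at 126, 39.4 and 45.8 CPM in siYAP replicates 1 to 3. On the CPM scale JUN and FOSL2, like both of these genes, were higher than siControl in 3 of 3 numbered pairs, a pattern held by 16.7% of all genes. On the TPM scale JUND, JUN and FOSL2 were higher in 2 of 3. The groups overlapped for JUNB and for JUND. Their log2 fold changes with the block were 0.56 ± 0.17 for JUNB (adjusted p = 0.520) and 0.57 ± 0.17 for JUND (0.525), and these were the 2 members at a nominal p under 0.05, where 9.11% of all genes were. HOOK2 was at 0.28 ± 0.16 with the block in siYAP, and its part in the JUNB reads was not tested.

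FOSL2 was at 407, 398 and 395 CPM in siYAP, all above the siControl libraries on this scale (3.6% of all genes), with a log2 fold change of 0.16 ± 0.16 (adjusted p = 1.00). On the TPM scale its groups overlapped. FOSB was at 0, 0.564 and 2.66 CPM and fell under the filter on low counts. Without a block, FOS was at 0.29 ± 0.49, BATF3 at 0.30 ± 0.28, JUN at 0.15 ± 0.34, FOSL1 at 0.05 ± 0.52 and ATF3 at -0.18 ± 0.59.

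The double knockdown had the highest group means of FOSB and FOS among the 4 groups and a JUNB mean of 42.2 CPM beside 41.9 in siNELFA, but no member passed the adjusted threshold against siControl. FOSB, an inducible FOS subunit, was at 0.650, 0.443 and 2.03 CPM in siControl and at 4.27, 4.86 and 3.75 in siNELFA+siYAP. FOS was at 4.19, 2.79 and 3.11 CPM, and JUNB at 42.1, 42.8 and 41.7, in the double knockdown. For these 3 genes the siNELFA+siYAP libraries were all above siControl, as for 15.1% of all genes.

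The log2 fold changes were 1.99 ± 0.54 for FOSB (adjusted p = 0.129), 1.17 ± 0.35 for FOS (0.155) and 0.92 ± 0.25 for JUNB (0.126). ERCC1, which contains FOSB on the other strand, was at 92.2 ± 3.37 CPM in siNELFA+siYAP and 62.7 ± 21.5 in siControl (SD, n = 3), with a log2 fold change of 0.56 ± 0.24, and its part in the FOSB reads was not tested. HOOK2 was at -0.05 ± 0.20. FOSL2 was at 289, 296 and 300 CPM, all below siControl (14.6% of all genes), with a log2 fold change of -0.29 ± 0.11 (adjusted p = 0.236).

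These were the 4 members of 9 at a nominal p under 0.05, where 18.5% of all genes were, and 0 members passed the adjusted threshold, where 0.428% of all genes did. DESeq2 placed FOSB (adjusted p = 0.0130) and JUNB (0.0191) past it, where 5.88% of its genes were. The call depended on 1 library: without siControl replicate 1, 5 members passed, FOSB at 1.78 ± 0.44 (adjusted p = 0.00774), FOS at 1.09 ± 0.36 (0.0393), JUNB at 1.14 ± 0.15 (7.5e-05), JUND at 0.58 ± 0.09 (0.000202) and FOSL2 at -0.37 ± 0.05 (8.38e-05). In that fit 24.4% of all genes passed. Without siControl replicate 3, FOSB alone passed, at 3.01 ± 0.39 (adjusted p = 0.0433), where 0.709% of all genes did.

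JUND was at 51.0, 51.8 and 51.0 CPM and FOSL1 at 253, 263 and 242 CPM in the double knockdown, inside the span of the siControl libraries. Their log2 fold changes were 0.25 ± 0.24 and 0.25 ± 0.39, and those of JUN, ATF3 and BATF3 were 0.23 ± 0.26, -0.47 ± 0.37 and -0.42 ± 0.23. BATF3 was at 3.78, 3.93 and 4.88 CPM there and at 4.66, 5.99 and 6.20 in siControl, with overlapping groups.

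The double knockdown was also set against each single knockdown. Against siYAP, 0 of 9 members passed the adjusted threshold (0.035% of genes) and 2 were at a nominal p under 0.05 (15.5% of genes). FOSL2 was one of them, with all siNELFA+siYAP libraries under all siYAP libraries (12.6% of genes in that direction), at -0.45 ± 0.09 (adjusted p = 0.132). BATF3 was the other, likewise without overlap on the CPM scale, at -0.72 ± 0.24 (adjusted p = 0.254). FOS and FOSB were without overlap on the CPM scale in the other direction, as were 13.9% of genes, at 0.88 ± 0.41 (adjusted p = 0.348) and 1.91 ± 0.88 (0.344), and the FOSB groups overlapped on the TPM scale. ERCC1 was at 0.40 ± 0.15 and HOOK2 at -0.35 ± 0.24 in this comparison. DESeq2 placed FOSL2 past the threshold (adjusted p = 0.0241, where 3.01% of its genes were), and without siYAP replicate 1 FOSL2 (-0.43 ± 0.06, adjusted p = 0.00053) and JUNB (0.76 ± 0.12, 0.00155) passed, where 16.5% of all genes did.

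Against siNELFA, 0 of 9 members passed (0.00573% of genes) and 1 was at a nominal p under 0.05 (6.62% of genes). That member was ATF3, at 8.30, 9.29 and 8.26 CPM in the double knockdown against 26.9, 10.6 and 10.9 in siNELFA, with a log2 fold change of -0.90 ± 0.38 (adjusted p = 0.735). The groups did not overlap on the CPM scale (7.89% of genes in that direction) but did on the TPM scale, and the highest siNELFA value was its replicate 1. DESeq2 also called 0 members (0.27% of its genes). Without siNELFA replicate 1, FOSL1 passed at -0.31 ± 0.06 (adjusted p = 0.0351), where 1.25% of all genes did.

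The interaction of the knockdowns, the difference between the effect of siNELFA with and without siYAP, was fitted over the 12 libraries. It ranged from -0.92 for JUND to 0.82 for FOSB among the members, and 0 of 9 passed the adjusted threshold by edgeR or DESeq2, as did 0 of 18525 genes by edgeR. BATF3 was the 1 member at a nominal p under 0.05 (1.76% of genes), at -0.82 ± 0.36 (adjusted p = 1.00). The 3 comparisons against siControl share its libraries, so their values for the members were not compared with each other by a test.

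Known AP-1 target genes were followed next, as a list of 22 genes described as AP-1 targets, among them proteases, cytokines and receptors, of which 20 were tested. With the block, 9 were higher and 1 was lower in siNELFA at the adjusted threshold, where 2.76% of all genes were higher and 2.45% lower. The list was written with earlier results of these data known, so its counts are a description and not independent evidence about AP-1 targets as a class. Without the block 0 passed, and 6 were higher at a nominal p under 0.05, where 2.25% of all genes were. The median log2 fold change of the list was 0.40 with the block and 0.39 without, against 0.01 and 0.00 over all genes. Without both replicate 1 libraries and without a block, 1 target gene passed, where 0.0996% of all genes did, and 11 were higher and 2 lower at a nominal p under 0.05, where 7.1% of all genes were higher and 7.15% lower.

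The largest estimates among those that rose with the block were cytokines. CXCL8, the neutrophil chemokine interleukin-8, was at 209.7, 80.3 and 111 CPM in siControl replicates 1 to 3 and at 565, 185 and 390 in siNELFA. Its libraries were higher in each numbered pair while the groups overlapped, and its log2 fold change was 1.49 ± 0.12 with the block (adjusted p = 4.88e-05). IL6, an inflammatory cytokine, was at 279, 74.0 and 99.7 CPM in siControl and 454, 197 and 293 in siNELFA, for 1.23 ± 0.14 (adjusted p = 0.000659).

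Proteases and their partners in the list were divided. PLAUR, the urokinase receptor, was at 0.80 ± 0.10, PLAU, urokinase, at 0.68 ± 0.09, MMP14, a membrane-bound matrix metalloproteinase, at 0.45 ± 0.09 and TIMP1, a metalloproteinase inhibitor, at 0.55 ± 0.12, all past the adjusted threshold with the block. The other metalloproteinases tested did not pass, MMP1 at -0.38 ± 0.19 (adjusted p = 0.277), MMP3 at 0.49 ± 0.40 (0.551) and MMP9 at 0.06 ± 0.16 (0.879). The others that rose were IL1A at 0.76 ± 0.12, HBEGF, a ligand of the EGF receptor, at 0.72 ± 0.11, and CCND1, cyclin D1, at 0.70 ± 0.09. IL11, a cytokine of the IL-6 family, fell, with 8.66, 28.0 and 42.7 CPM in siControl and 4.67, 9.94 and 18.5 in siNELFA, at -1.22 ± 0.17 (adjusted p = 0.00244).

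CD68, a lysosomal protein used as a macrophage marker, was at 89.0 to 105 CPM in siControl, 145 to 162 in siNELFA, 127 to 147 in siYAP and 182 to 195 in siNELFA+siYAP. Its log2 fold changes were 0.63 ± 0.10 in siNELFA with the block (adjusted p = 0.00473), 0.47 ± 0.11 in siYAP with the block (0.480) and 0.94 ± 0.11 in siNELFA+siYAP (0.0317). The other 4 leukocyte and endothelial markers were low, with CD3E at 0 counts, PTPRC and CDH5 at no more than 4 counts and PECAM1 at 30 to 85, and the summed TPM of the 5 was 77.2 to 81.0 in siControl, 92.3 to 119 in siNELFA, 93.0 to 117 in siYAP and 126 to 155 in siNELFA+siYAP. The part of CD68-expressing cells in the values of the target genes was not tested.

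**Figure D5:**
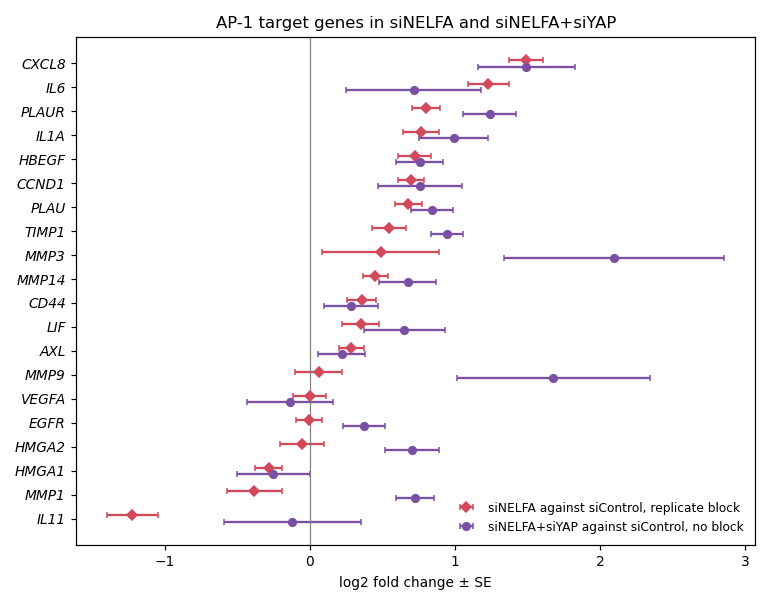
Log2 fold change (horizontal axis; bars are SE) of the 20 tested AP-1 target genes in siNELFA with the replicate block (diamonds) and in siNELFA+siYAP without it (circles), both against the shared siControl libraries. CXCL8 lies at 1.49 in both, and IL11 at -1.22 in siNELFA and -0.12 in siNELFA+siYAP.

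In siYAP, 0 of the 20 target genes passed without the block (0.00578% of all genes) or with it (0.0173%). At a nominal p under 0.05, 1 was higher without the block (1.3% of all genes in either direction), and with it 5 were higher and 1 lower, where 5.11% of all genes were higher and 4% lower. The 2 of lowest p with the block were MMP9 at 1.43 ± 0.24 (adjusted p = 0.241) and TIMP1 at 0.65 ± 0.13 (0.319). In siNELFA+siYAP, TIMP1 passed at 0.94 ± 0.11 (adjusted p = 0.0317), where 0.12% of all genes were higher at this threshold, and 13 were higher and 0 lower at a nominal p under 0.05, where 8.27% of all genes were higher. TIMP1 was at 91.4, 89.1 and 103 CPM in siControl and 178, 188 and 179 in the double knockdown, with no overlap. Its log2 fold change was 0.90 to 1.01 when any 1 of the 6 libraries was left out, but its adjusted p ranged from 4.6e-07 to 0.389 and missed the threshold without siControl replicate 2 (0.140) or without replicate 1, 2 or 3 of siNELFA+siYAP (0.377, 0.389 and 0.363). PLAUR was at 1.24 ± 0.18 (adjusted p = 0.0509) and CXCL8 at 1.49 ± 0.34 (0.0944), which missed the threshold. Without siControl replicate 1, 17 target genes were higher and 2 lower at the adjusted threshold, where 11.5% of all genes were higher and 12.9% lower.

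Of the 4 lists of genes that partner, induce or restrain AP-1, 3 held genes past the adjusted threshold in siNELFA with the block, and none did without it. Over all genes, 2.76% were higher and 2.45% lower at this threshold with the block, and 0.00564% passed without it. Among 16 tested other bZIP partners, 3 passed with the block in siNELFA, all higher, the small MAF proteins MAFF (0.62 ± 0.12, adjusted p = 0.0104) and MAFK (0.75 ± 0.18, 0.0309), which lack an activation domain, and NFE2L1 (0.46 ± 0.09, 0.0104), a partner of the small MAFs. Of 16 upstream MAP kinases, 0 passed with or without the block, and those of lowest p were MAP2K2 at 0.41 ± 0.20 and MAPK9 at -0.23 ± 0.15 without it. Of 11 DNA-binding regulators of the FOS and JUN promoters, MEF2D was higher (0.47 ± 0.11, adjusted p = 0.0225) and ELK3, a ternary complex factor that can repress FOS, was lower (-0.88 ± 0.16, 0.00884) with the block.

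Of 12 feedback and turnover genes, DUSP5 rose (0.61 ± 0.10, adjusted p = 0.00621) and DUSP6 fell (-0.78 ± 0.11, 0.00181) with the block in siNELFA; both encode phosphatases of ERK kinases. DUSP6 was at 123, 133 and 132 CPM in siControl and 67.8, 84.5 and 72.2 in siNELFA, without overlap. In these 4 lists 0 genes passed without a block in siNELFA, siYAP or siNELFA+siYAP by edgeR, where 0.00564%, 0.00578% and 0.428% of all genes did. At a nominal p under 0.05, 3 partners were higher in siNELFA, and 1 feedback gene was higher and 2 lower, where 2.25% of all genes were higher and 2.21% lower, while in siNELFA+siYAP 3 partners, 1 kinase, 1 regulator and 1 feedback gene were higher and 3 kinases and 2 feedback genes lower, where 8.27% of all genes were higher and 10.2% lower. Without siControl replicate 1, the adjusted calls in siNELFA+siYAP were 5 partners higher and 2 lower, 1 kinase higher and 3 lower, 2 regulators higher and 2 lower, and 1 feedback gene higher and 2 lower, in the fit where 11.5% of all genes were higher and 12.9% lower. In siNELFA+siYAP the genes of lowest p in each list were NFE2L1 (0.49 ± 0.10, adjusted p = 0.0802) and MAFK (0.61 ± 0.20, 0.180), MAPK3 (-0.64 ± 0.13, 0.0810) and MAP2K2 (0.31 ± 0.10, 0.181), MEF2D (0.46 ± 0.14, 0.161) and ELK1 (0.38 ± 0.19, 0.338), and DUSP5 (0.60 ± 0.13, 0.0868) and DUSP6 (-0.42 ± 0.10, 0.0981).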

How the data were processed

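The authors sequenced 12 stranded, rRNA-depleted libraries of MDA-MB-231 RNA. Their methods name STAR for alignment (GRCh38, Ensembl release 87) and featureCounts for the deposited counts, which are unnormalized. The deposited TPM values are scaled per length and library. A further 12 FPKM columns were not used, since they spell siNELFA unlike the labels and differ from TPM by a constant in each library.

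Counts were tested by edgeR 4.0.16 in R 4.3.3 (quasi-likelihood, TMM, filterByExpr with a minimum count of 10, total of 15 and proportion of 70%) on the 6 libraries compared, without a block, with Benjamini-Hochberg adjustment over all tested genes, and the interaction on all 12. The SE is the log2 fold change divided by the square root of F. p-values measure the spread between these libraries. DESeq2 1.42.0 and limma 3.58.1 (pseudocounts 1 and 0.1 on TPM) were among the alternatives, with other filters, all 12 libraries in a fit, each library left out, and, added after seeing the data, the replicate 1 libraries removed together. The edgeR fits with and without the block were run on simulated counts for siNELFA against siControl alone. These counts held neither 1 outlying replicate number nor the double knockdown libraries, so they do not cover those features of the data.

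Over 12971 genes, which are not independent, deviations of libraries with the same number correlated by 0.658 to 0.892 within the siControl, siNELFA and siYAP groups, against -0.0506 to 0.0311 for pairs that include the double knockdown. The shift of replicate 1 enters all of these deviations, and pairs of unlike number were not correlated. The numbers come from the labels. The members and lists were chosen with earlier results of these data known. All 9 members are named in comparisons with siControl; elsewhere a member is named where past a threshold, and list genes where past the adjusted threshold or among the 2 of lowest p. Genes of lists were written from general knowledge. A gene of the target list is not reported here and enters none of its counts. JUNB's and FOSB's overlapping genes, CD68, CDH1, ERBB3, GATA3 and the metalloproteinases that did not pass were named after their values were seen. Promoters are from RefSeq, coordinates from GENCODE. The limit of 3 counts for the library without a FOSB read covers counting error only, while each SD and SE includes the spread between libraries.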

Additional observations from a re-analysis of the deposited data

How the results depend on the processing

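With the replicate number as a block, 1 member (JUNB) passed in siNELFA, in place of 0; in siNELFA+siYAP, where the numbers do not pair the libraries, the block left 0 members and 2 genes called, in place of 75. All-gene counts in siNELFA went from 1 to 924 with the block, 17 by DESeq2, 3 without the filter, 3 and 28 by limma with pseudocounts 1 and 0.1, 8 with all 12 libraries and 18 without the replicate 1 libraries. In siNELFA+siYAP they were 935 by DESeq2 (2 members), 381 without the filter, 117 with protein-coding genes only, and 4 and 29 by limma, and 0 to 4531 with single libraries left out (4531 without siControl replicate 1). In siYAP they went from 1 to 3 with the block and 2 and 23 by limma. Against siYAP they went from 6 to 494 by DESeq2, 222 without the filter, 1 with the block, 0 and 36 by limma and 0 to 2937 with single libraries left out. Against siNELFA they went from 1 to 48, 26, 1, 5 and 55 in the same order and 1 to 228, and the interaction went from 0 to 2 and 14 by limma. Leaving out single libraries gave 0 to 5 members in siNELFA+siYAP against siControl, 0 to 2 against siYAP, 0 to 1 against siNELFA and 0 in the interaction; DESeq2 called 1 member against siYAP.

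Reversed signs were those of ATF3 in siNELFA by limma (-0.12 with both pseudocounts), of IL11 in siNELFA+siYAP with the block (0.0929), and of members that did not pass when single libraries were left out. In siNELFA these ranged from -0.14 to 0.57 for FOSL1, -0.32 to 0.21 for JUN, -0.14 to 0.95 for ATF3 and -0.0474 to 0.30 for BATF3. In siYAP they ranged from -0.0521 to 0.59 for FOS, -0.32 to 0.39 for FOSL1, -0.11 to 0.41 for JUN, -0.0115 to 1.05 for JUND and -0.96 to 0.34 for ATF3. In siNELFA+siYAP they ranged from -0.13 to 0.56 for FOSL1, -0.0312 to 0.50 for JUN, -0.75 to 0.0378 for ATF3 and -0.53 to 0.40 for IL11. The cause was not tested. Of 257 other values of members, 251 kept their direction and side of the threshold, 4 passed it and 2 reversed. The FOSL1 share of the FOS family in siControl was 65.7% by TPM and 65.5% by CPM per kilobase. The ATF3 share of the 9 members there differed more, at 4.90% by TPM and 1.46% by CPM per kilobase. FPKM gives the same shares as TPM by construction and was not run. FOS and FOSB are limited by depth, with at most 58 and 70 counts a library.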

Other observations

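The profile of each member averaging at least 50 counts was set beside those of the 12971 genes with as many counts, by the root mean square (RMS) difference of log2 CPM centred on each gene's own mean over the 12 libraries. The genes nearest to JUNB were COL5A1 (RMS 0.125), a fibrillar collagen chain, BMP1 (0.142), a procollagen protease, and RP11-54O7.14 (0.159), where JUNB itself varied by 0.568 about its mean. COL5A1 was at 612, 278 and 466 CPM in siControl and at 767, 759 and 737 in siNELFA+siYAP. FOSL1 was nearest to IFRD2 (0.116), RPP40 (0.117) and ALYREF (0.122), and FOSL2 to HIF1AN (0.0767), MTCH1 (0.0922) and CTBP1 (0.0998). JUN was nearest to PLAGL2 (0.0791), SFXN5 (0.0835) and SETD1B (0.0902), and JUND to PLXNA3 (0.111), BCL3 (0.118) and ASMTL (0.126). ATF3 was nearest to IFNGR1 (0.230), HSPB8 (0.236) and HEG1 (0.241), and BATF3 to DISP1 (0.193), SH3RF1 (0.208) and SDHAP2 (0.214). The 12 points of each profile share their libraries, including the replicate 1 libraries that stood apart, so these are descriptions of likeness over these libraries.

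Among the members themselves the nearest pairs were FOSL2 and BATF3 (0.268), FOSL1 and JUN (0.367), JUNB and JUND (0.380), FOSL2 and JUN (0.398) and JUND and ATF3 (0.440). FOSL1 and ATF3 were farther apart, at 1.27.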
